A study of Drosophila melanogaster with 8 samples.

Results

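Testes mutant for both Tailor and Dis3L2 were compared with testes of w1118, the control strain, across all features with adequate counts. The comparison used 4 of the 8 libraries of the series, 2 from Tailor/Dis3L2 double mutants and 2 from w1118. The remaining 4, from Tailor mutants and Dis3L2 mutants, served to estimate the spread and to set each single mutation beside the pair. All flies were 5 days old, the labels name no treatment, and independent dissections gave the libraries of each group, so n = 2 throughout. Alleles, parent strains and the number of animals in a dissection were not given in the sources used here. Effects of the mutations and of strain background therefore cannot be told apart. Of 22887 features in the count table, 17471 were genes and 5416 were single transposon insertions, and 14246 had adequate counts and were tested.

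Tailor is a terminal uridylyltransferase, an enzyme that adds uridines to the 3' ends of RNA, and Dis3L2 is a 3'-to-5' exonuclease that prefers RNA with such tails. In flies the proteins bind each other, and the complex is known for the surveillance of structured noncoding RNA and for the tailing of the hairpins of mirtrons, microRNA precursors made by splicing. The testis holds germ cells at every stage from stem cells through spermatocytes to elongating spermatids, wrapped in somatic cyst cells. Total RNA libraries, as made here, keep mRNA and longer noncoding RNA alike, and short RNAs such as small nucleolar RNAs (snoRNAs) are only partly retained by the preparation. In bulk tissue, fewer cells of a type and less RNA per cell cannot be told apart.

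Total counts of the 4 libraries compared ranged from 9781275, in double mutant replicate 2, to 30059737, in double mutant replicate 1. Log-scale levels correlated at 0.9913 between the w1118 libraries and at 0.989 between the double mutant libraries, across features. The single mutant pairs, which also entered the estimate of spread, correlated at 0.9627 (Tailor) and 0.9865 (Dis3L2). Tailor mutant replicate 1 correlated at 0.972 with double mutant replicate 1, above its value with its own replicate. Ribosomal RNA took 7.77% and 2.42% of counts in w1118 and 4.65% and 10.3% in the double mutant. Germline markers were present in every library, with the testis tubulin betaTub85D at 1949 and 1999 CPM (counts scaled to a common library size) in w1118 and 2291 and 2198 CPM in the double mutant. RNA of other tissues was present too: in w1118 the accessory gland gene Acp36DE was at 5345 and 5581 CPM, the blood cell gene Hml at 73.6 and 66.3 CPM and the fat body gene apolpp at 204 and 163.6 CPM, while the blood cell gene He and the midgut protease gene Jon25Bii did not exceed 0.521 CPM in any library. Other midgut enzymes were higher in w1118 replicate 2 than in replicate 1, as described with those genes.

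The targeted genes went with the labels. Tailor, at 3R:7083225-7086083 (dm6), was at 82.6 and 87.0 CPM in w1118 and 22.8 and 21.1 CPM in the double mutant, a log2 change of -1.95 ± 0.12 (standard error, SE, of the fit; adjusted p = 0.000419). Dis3l2, listed in the table as CG16940, was at 115.0 and 116.6 CPM in w1118 and 30.7 and 30.8 CPM in the double mutant (-1.91 ± 0.11, adjusted p = 0.000304). Its level in the double mutant was higher than in the Dis3L2 mutant, where it was 9.99 and 10.6 CPM (1.58 ± 0.11, adjusted p = 0.000753). The white gene w, which encodes the transporter of eye pigment precursors and gives the w1118 strain its name, was at 5.96 and 6.18 CPM in w1118. In the Tailor mutant the level was 9.97 and 7.71 CPM, in the Dis3L2 mutant 41.6 and 50.2 CPM, and the double mutant was at 18.8 and 19.3 CPM. Its rise over w1118 was 1.65 ± 0.18 (adjusted p = 0.00407).

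In the double mutant, 949 features were higher and 699 were lower than in w1118 at an adjusted p of 0.05 or less, which is 6.66% and 4.91% of those tested and 11.6% together. The rises were mostly modest, with a median log2 change of 0.98 among the features called higher, and the falls were steeper, with a median of -1.44. At least 2-fold changes were held by 465 of the former and 494 of the latter. Protein-coding genes gave 712 rises and 476 falls among 11586 tested, noncoding RNA genes 165 and 100 among 1532, and transposon insertions 59 and 66 among 757, whereas snoRNAs gave no rise and 45 falls among 141. Over all features the median log2 change was -0.06, and the libraries of the groups did not overlap for 9956 features, or 69.9%. How many features were called depended on the libraries in the fit: 196 were called without w1118 replicate 1, 220 without w1118 replicate 2, 385 without double mutant replicate 1 and 350 without double mutant replicate 2, but 3393 and 3537 without Tailor mutant replicates 1 and 2. Of 125 named features called, 54, 52, 54 and 51 kept their call in the first 4 of these fits. Over 17 of the 19 other settings tried, as far as they gave a value, 39 kept it throughout, and these are called the firmest results. The remaining 2 settings were chosen after seeing the data, and 3 of the 125 kept their call in the one without both w1118 replicate 2 and double mutant replicate 2.

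**Figure D1:**
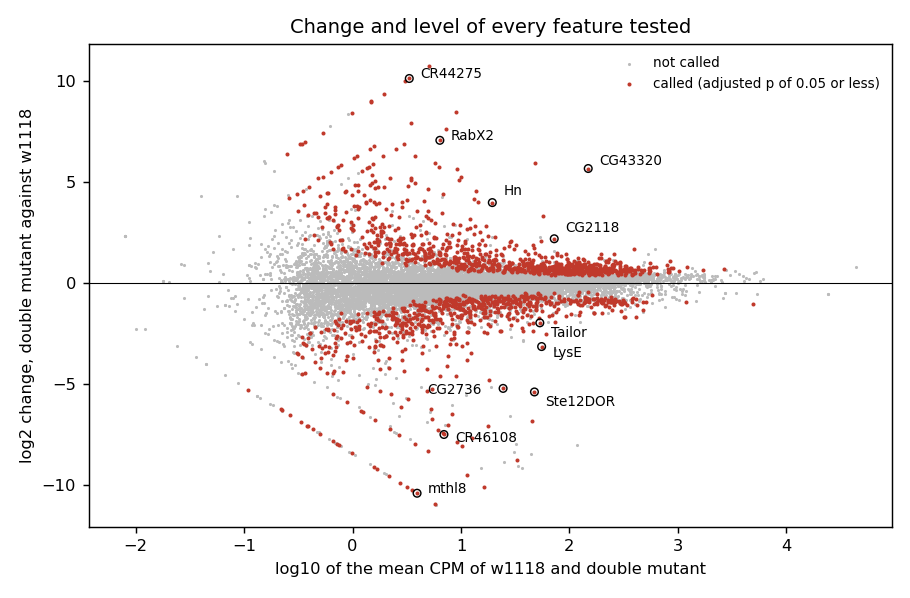
Mean level over the 4 libraries (log10 CPM, horizontal axis) and log2 change in the double mutant against w1118 (vertical axis) of 14244 features, as fitted; 2 features with no read in these libraries are not drawn. Coloured points are the 949 features called higher and the 699 called lower, and the named genes include CG43320 at 5.69 and CG2736 at -5.19.

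The feature with the lowest p was a loss. CG2736, at 2R:24973431-24975341 (dm6), stood at 47.1 and 48.2 CPM in w1118. Tailor mutants held 33.4 and 33.4 CPM and Dis3L2 mutants 18.8 and 21.8 CPM, while the double mutant libraries were at 1.38 and 1.14 CPM. The double mutant libraries lay below all others, by -5.19 ± 0.19 against w1118 (adjusted p = 0.000133), -4.68 ± 0.18 against the Tailor mutant (adjusted p = 0.000258) and -3.97 ± 0.18 against the Dis3L2 mutant (adjusted p = 0.000274), comparisons that share the double mutant libraries. Over all features, 14.7% were called in the double mutant against the Tailor mutant, 9.05% against the Dis3L2 mutant and 4.08% for the interaction, the difference between the log2 change of the double mutant and both single changes added. For CG2736 the interaction was -3.45 ± 0.23 (adjusted p = 0.00121), so the double mutant lay below that sum.

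Among the 15 named largest rises, the highest level was reached by CG43320, named HSPBAP1 in the annotation, at 3R:27695235-27696531 (dm6). It was at 4.99 and 6.30 CPM in w1118 and 5.61 and 4.02 CPM in the Tailor mutant, 19.8 and 38.3 CPM in the Dis3L2 mutant, and 329 and 256 CPM in the double mutant. The increase over w1118 was 5.69 ± 0.38 (adjusted p = 0.000561) and that over the Dis3L2 mutant 3.33 ± 0.34 (adjusted p = 0.00302), with an interaction of 3.57 ± 0.47 (adjusted p = 0.014). ALiX, which overlaps it on the opposite strand, had means of 136 CPM in both groups (0.01, adjusted p = 0.973). CG2118, named Mccc1 for a subunit of the enzyme that carboxylates methylcrotonyl-CoA in leucine breakdown, behaved alike at a smaller scale: 24.5 and 26.9 CPM in w1118. Values were 29.95 and 29.3 CPM in the Tailor mutant and 30.7 and 33.5 CPM in Dis3L2 mutants, with 119.8 and 119 CPM when both genes were mutated (2.21 ± 0.12, adjusted p = 0.000278; interaction 1.69 ± 0.17, adjusted p = 0.00496). For both genes the double mutant libraries lay above all 6 others.

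Some RNAs were all but absent from w1118 and present in the double mutant: 30 features were called that lay under 1 CPM in w1118 and reached 5 CPM or more in the double mutant, 13 of them protein-coding, 13 noncoding RNA genes, 1 pseudogene and 3 transposon insertions. CR44275 and CR45568, long noncoding RNA genes on 2R and 3R, had no read in either w1118 library. CR44275 was at 6.90 and 6.44 CPM in the double mutant, at least 103-fold higher, and CR45568 at 6.68 and 5.40 CPM, at least 96.8-fold higher, with 3 counts put over the w1118 group (adjusted p = 0.00107 and 0.00147). Both were also present in the single mutants, CR44275 at 3.91 and 2.45 CPM in the Tailor mutant and 5.59 and 4.32 CPM in the Dis3L2 mutant. CR43839 had 2 counts in w1118 and stood at 15.5 and 20.2 CPM in the double mutant, a ratio of 379 with a 95% counting interval of 104 to 3130 (adjusted p = 0.000632). Its level in the single mutants lay between, from 4.26 to 6.19 CPM.

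Other RNAs of this kind differed in which single mutant carried them. RabX2, a small GTPase of the Rab family, was at 0.0485 and 0.120 CPM in w1118. Its single mutant values were 7.66 and 4.98 CPM for Tailor and 9.06 and 14.2 CPM for Dis3L2, and that of the double mutant was 12.4 and 13.0 CPM (7.09 ± 0.48, adjusted p = 0.000581). All 3 mutants were high, and the double mutant differed from neither single mutant past the threshold (adjusted p = 0.067 and 0.834). Sox21b, a transcription factor of the Sox family, was low in the Tailor mutant, at 0.0501 and 0.201 CPM, and in w1118, at 0.145 and 0.0401 CPM, but high in the Dis3L2 mutant, at 5.86 and 5.73 CPM, and in the double mutant, at 7.96 and 7.06 CPM (6.32 ± 0.55 against w1118, adjusted p = 0.00145). Its level therefore split the 4 groups by the Dis3L2 label.

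A further set was highest in the double mutant. CR43808, a noncoding RNA gene at 2L:5904958-5906250 (dm6), did not exceed 0.351 CPM in any of the other 6 libraries and was at 12.4 and 10.4 CPM in the double mutant (5.94 ± 0.74 against w1118, adjusted p = 0.00528; 5.75 ± 0.73 against the Tailor mutant, adjusted p = 0.00735; 7.09 ± 0.84 against the Dis3L2 mutant, adjusted p = 0.00469). CR44344 was graded, at 0.194 and 0.241 CPM in w1118. Testes mutant for Tailor held 0.501 and 0.522 CPM, those mutant for Dis3L2 1.46 and 1.41 CPM and those mutant for both 11.7 and 13.1 CPM (5.78 ± 0.29, adjusted p = 0.000221). The order of the 4 groups held with no overlap of libraries. CG14410, a protein-coding gene named here after its values were seen, was at 0.0485 and 0.321 CPM in w1118 and 8.41 and 5.19 CPM in the double mutant (5.11 ± 0.63, adjusted p = 0.00524), and none of its single mutant libraries exceeded 0.402 CPM. The calls of CG14410 and of all other genes named after their values were seen, here and below, were not run through the other settings. CR44612, another noncoding RNA gene named after its values were seen, did not exceed 0.281 CPM in the other 6 libraries and was at 5.91 and 7.58 CPM in the double mutant (5.24 ± 0.91, adjusted p = 0.0148).

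The long noncoding CR genes as a class were spread over both directions: 175 of 1613 tested were higher (10.8%) and 102 lower (6.32%), with a median of 0.04. When a w1118 or double mutant library was left out, 35 to 68 were higher and 18 to 27 lower. CR44750 was at 1.503 and 1.72 CPM in w1118. In the Tailor mutant the level was 10.3 and 7.96 CPM, in the Dis3L2 mutant 13.98 and 16.05 CPM, and the double mutant was at 26.5 and 27.6 CPM (4.06 ± 0.21, adjusted p = 0.000221). CR46260 climbed in the same order, from 0.339 and 0.361 CPM in w1118 over 2.55 and 2.21 CPM in the Tailor mutant and 7.32 and 7.36 CPM in the Dis3L2 mutant to 19.3 and 16.4 CPM (5.65 ± 0.24, adjusted p = 0.000156). In both genes the double mutant exceeded each single mutant past the threshold, and the rise stayed below both single changes added, by -1.64 ± 0.27 (adjusted p = 0.0231) and -1.46 ± 0.30 (adjusted p = 0.0469). CR43263 was the largest rise of all by the fit, from no read in w1118 to 12.3 and 8.10 CPM, at least 172-fold, yet the Tailor mutant libraries stood at 2.70 and 17.8 CPM, a spread as wide as the double mutant's level, and its call (adjusted p = 0.0208) was kept in 13 of those 17 settings.

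The opposite group, under 1 CPM in the double mutant and at 5 CPM or more in w1118, held 42 called features, of which 24 were protein-coding, 13 noncoding RNA genes, 4 transposon insertions and 1 a snoRNA. In 12 of the 42, w1118 replicate 2 exceeded replicate 1 more than 5 times, and these included digestive enzymes. mthl8, a G protein-coupled receptor gene of the Methuselah-like family at 3L:22428-26308 (dm6), was at 7.56 and 8.18 CPM in w1118, 3.31 and 4.90 CPM in the Tailor mutant and 3.86 and 5.18 CPM in the Dis3L2 mutant, and had no read in the double mutant, at least 107-fold lower than w1118 (adjusted p = 0.000951). Both single mutants also exceeded the double mutant (adjusted p = 0.00336 and 0.00149).

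CR46108, a noncoding RNA gene at 3R:29719713-29721191 (dm6), was at 14.5 and 13.3 CPM in w1118. Tailor mutants held 24.0 and 20.5 CPM and Dis3L2 mutants 6.33 and 6.33 CPM, while the double mutant libraries were at 0.0963 and 0 CPM. The w1118 level was 188 times that of the double mutant, with a counting interval of 64.0 to 914 (adjusted p = 0.000221). CG15506, which overlaps it on the same strand, fell as well, from a mean of 3.45 to 1.28 CPM (-1.49, adjusted p = 0.0246). Similar cases named after their values were seen were CG33773, at 17.6 and 15.2 CPM in w1118 and 0.128 and 0.312 CPM in the double mutant (-6.48 ± 0.48, adjusted p = 0.000879), and the noncoding CR43652, at 6.21 and 6.70 CPM and 0.161 and 0 CPM (-5.72 ± 0.52, adjusted p = 0.00164). Single mutant libraries held 9.26 to 18.2 CPM of the first and 2.996 to 4.66 CPM of the second, so the double mutant lay below all of them. The insertion jockey{}981 on 3L went from 17.5 and 19.0 CPM in w1118 to 0.0963 and 0 CPM in the double mutant, while the single mutants held between 7.52 and 37.8 CPM (ratio 249, interval 84.9 to 1210, adjusted p = 0.00273).

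Further losses were also present in a single mutant or in both. CG15398, named Trf5 in the annotation, was at 32.1 and 37.2 CPM in w1118 and 19.5 and 18.4 CPM in the Tailor mutant, but at 1.33 and 1.93 CPM in the Dis3L2 mutant and 1.28 and 1.25 CPM in the double mutant (-4.76 ± 0.23 against w1118, adjusted p = 0.000199; -0.38 ± 0.24 against the Dis3L2 mutant, adjusted p = 0.34). CG8960, also named after its values were seen, was at 13.6 and 13.3 CPM in w1118 and 2.35 and 2.33 CPM in the Tailor mutant, and had 1 read in Dis3L2 mutants and 3 reads in double mutants (adjusted p = 0.000549). HGTX, a homeodomain transcription factor gene named after its values were seen, had the reverse arrangement: 12.6 and 11.8 CPM in w1118 and 11.8 and 11.4 CPM in the Dis3L2 mutant, against 1.70 and 1.12 CPM in the Tailor mutant and 0.449 and 0.623 CPM in the double mutant (-4.57 ± 0.30, adjusted p = 0.000541). The neighbouring noncoding genes CR43949 and CR43950 on 3L differed from each other. CR43949 was at 9.36 and 10.5 CPM in w1118 and had 1 read in all mutant libraries together, and CR43950, at 6.21 and 7.90 CPM in w1118, kept 4.20 and 4.07 CPM in the Dis3L2 mutant and had no read in the Tailor mutant or the double mutant, at least 97.0-fold lower (adjusted p = 0.00185). LysE, a lysozyme gene, fell from 103 and 96.1 CPM to 25.8 and 22.6 CPM in the Tailor mutant, 9.39 and 10.1 CPM in the Dis3L2 mutant and 11.4 and 11.4 CPM in the double mutant (-3.12 ± 0.14, adjusted p = 0.000199), less than both single changes added (interaction 2.27 ± 0.19, adjusted p = 0.00261).

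**Figure D2:**
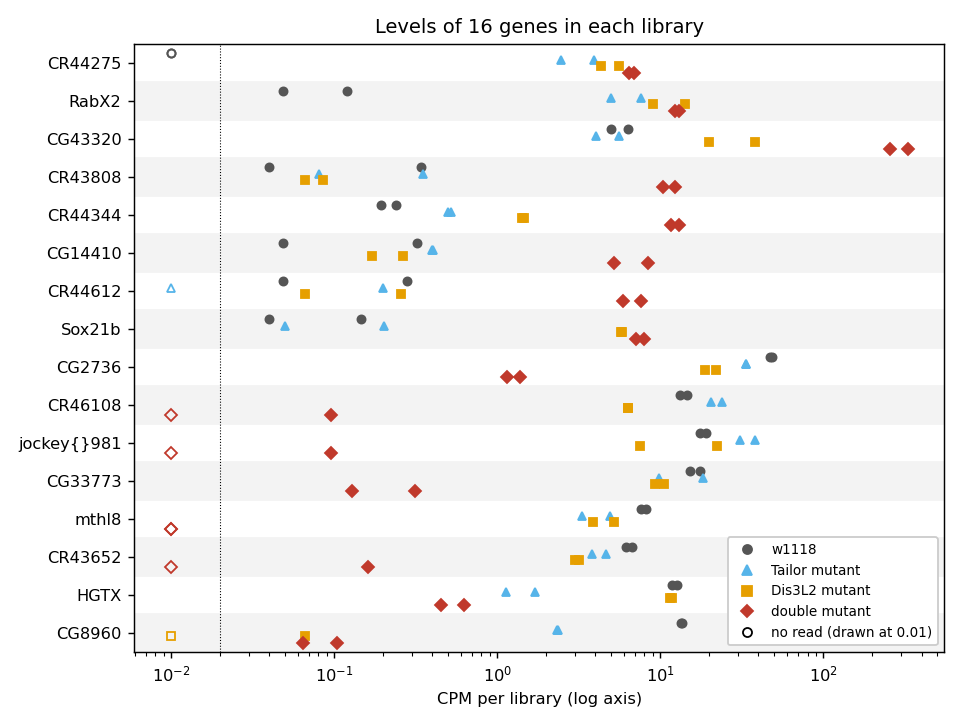
Level of 16 genes (rows) in each of the 8 libraries, as CPM on a log axis (horizontal); symbols and colours give the 4 groups, and open symbols at 0.01 mark a library with no read. CG43320 and CR43808 are highest in the double mutant, CG2736 and mthl8 are lowest there, and Sox21b is high in both groups mutant for Dis3L2.

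Cytoplasmic ribosomal protein genes, which encode the protein part of the ribosome, fell together: 55 of 87 were lower (63.2%, against 4.91% of all features), 1 was higher, and 84 had a log2 change below 0, with a median of -0.85. Their summed level was 26332 and 23686 CPM in w1118 and 13542 and 14364 CPM in the double mutant. In the Tailor mutant the sum was 22968 and 32544 CPM. Dis3L2 mutants summed to 16393 and 19668 CPM, so that the double mutant was the lowest of the 4 groups with no overlap. Against the Tailor mutant 72 of the 87 were lower, with a background of 6.54% of all features. That count came from the fit of all 8 libraries. A fit of only the 4 libraries of these groups called 20 of all features. Against the Dis3L2 mutant, where 4.27% of all features were lower, edgeR called none of the 87 lower, with 22 at an unadjusted p under 0.05 and 5 called by DESeq2. The count over w1118 rested on every library: without a w1118 or double mutant library only 0 to 2 were called lower, while the median stayed between -0.996 and -0.74 in all 19 settings tried.

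RpS28b was at 338 and 296 CPM in w1118. Values were 328 and 397 CPM in the Tailor mutant and 217 and 258 CPM in Dis3L2 mutants, with 176 and 158 CPM when both genes were mutated (-0.93 ± 0.16 against w1118, adjusted p = 0.0138). The libraries of w1118 and the double mutant did not overlap, as for 69.9% of all features. RpS20 changed by -1.10 ± 0.19, RpL29 by -0.98 ± 0.17 and RpL30 by -1.06 ± 0.19 (adjusted p = 0.0141, 0.0145 and 0.0152), and RpL3, at the high level of 641 and 613 CPM in w1118, was at 335 and 335 CPM in the double mutant (-0.91 ± 0.23, adjusted p = 0.0464). The only member called higher was RpS28a, a paralog of RpS28b at a low level, with 2.13 and 2.21 CPM in w1118 and 4.21 and 3.95 CPM in the double mutant (0.91 ± 0.22, adjusted p = 0.0411). Among other paralogs, RpL10Aa was at 0.15 ± 0.16 and RpS19b at 0.02 ± 0.21, and neither was called. For comparison, 370 other coding genes of 300 to 1200 nt with over 100 CPM in w1118 had a median of 0.19, with 13 higher and 15 lower.

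Small nucleolar RNAs, which guide the modification of ribosomal RNA, and their Cajal body relatives (scaRNAs), which do so for spliceosomal RNA, lay below w1118 in the double mutant in nearly every tested case. Of the 324 listed, 143 were tested, and 46 were called lower (32.2%, against 4.91% of all features) and none higher. Of the 143, 141 lay below 0, with a median of -1.70. Their summed level was 3254 and 1952 CPM in w1118. Single mutant sums were 2051 and 3008 CPM for Tailor and 2481 and 2141 CPM for Dis3L2, and that of the double mutant was 1079 and 680 CPM, the lowest group with no overlap. Against the Tailor mutant 38 were lower and against the Dis3L2 mutant 25, where 6.54% and 4.27% of all features were lower. The count against the Tailor mutant came from the fit of all 8 libraries. Fitting only the 4 libraries of that comparison called 20 of all features. Leaving out a w1118 or double mutant library reduced the count of 46 to between 0 and 13, with the median between -2.37 and -1.27 over 18 settings. The other members did not pass the filter on low counts, so these values describe the more abundant ones.

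snoRNA:Psi18S-1377b, which lies inside RpS7, was at 18.3 and 10.9 CPM in w1118, between 10.4 and 13.5 CPM in the single mutants and at 3.05 and 2.29 CPM in the double mutant (-2.41 ± 0.30, adjusted p = 0.00535). snoRNA:Psi18S-1854b went from 18.1 and 10.1 CPM to 1.44 and 0.623 CPM (-3.61 ± 0.49, adjusted p = 0.00682), and its single mutant libraries held 9.03 to 20.6 CPM. scaRNA:MeU2-48, inside hfp, went from 5.48 and 2.77 CPM to 0.225 and 0.208 CPM (-4.19 ± 0.58, adjusted p = 0.00682), below both single changes added by -4.65 ± 0.72 (adjusted p = 0.0201). In all 3 RNAs the double mutant libraries lay below the other 6. Medians were close to each other across kinds of host. The snoRNAs inside ribosomal protein genes had a median of -1.75 (16 of 48 called lower), those inside other genes -1.79 (27 of 82) and those with no host gene -1.54 (3 of 12). Of the host transcripts, RpS7, host of Psi18S-1377b, was at -0.92 (adjusted p = 0.0298) and hfp at -0.46 (adjusted p = 0.238).

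Fewer of the other short structured RNAs were called. Of 29 spliceosomal snRNAs 2 were lower (6.9%, near the 4.91% of all features), with a median of -0.65, among them snRNA:U2:34ABc at 649.9 and 326 CPM in w1118 and 188 and 122 CPM in the double mutant (-1.65 ± 0.34, adjusted p = 0.0248). All 7 RNA polymerase III transcripts on the list lay below 0 (median -0.50), and RNaseP:RNA, the RNA subunit of the enzyme that trims tRNA 5' ends, was called, at 373 and 211 CPM in w1118 and 114.6 and 93.6 CPM in the double mutant (-1.49 ± 0.30, adjusted p = 0.0241). The 6 snoRNA host genes of the Uhg type (median -0.56) were not called by edgeR or DESeq2, with 1 lower at an unadjusted p under 0.05. The same held for 5 tRNAs and 17 ribosomal RNA features that passed the filter, with none at an unadjusted p under 0.05, and 9 of the 17 lay below 0. Replicate 1 of w1118 was higher than replicate 2 for snRNA:U2:34ABc, for RNaseP:RNA and for the sum over snoRNAs and scaRNAs, and ribosomal RNA also took a larger share of its counts (7.77% against 2.42%); the part of RNA size selection or depletion in the result was not tested.

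**Figure D3:**
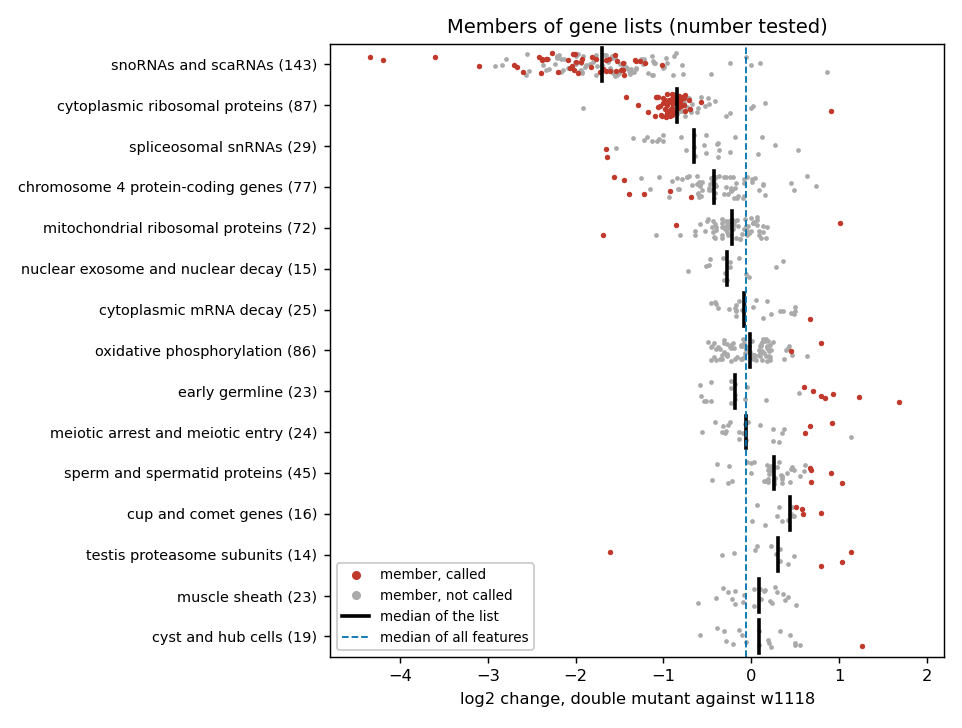
Log2 change in the double mutant against w1118 (horizontal axis) of the tested members of 15 gene lists (rows); red points are called members, black bars are list medians and the dashed line is the median of all features, -0.06. Ribosomal proteins (median -0.85) and snoRNAs (median -1.70) lie to the left of the line, and all 16 cup and comet genes lie above 0.

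**Figure D4:**
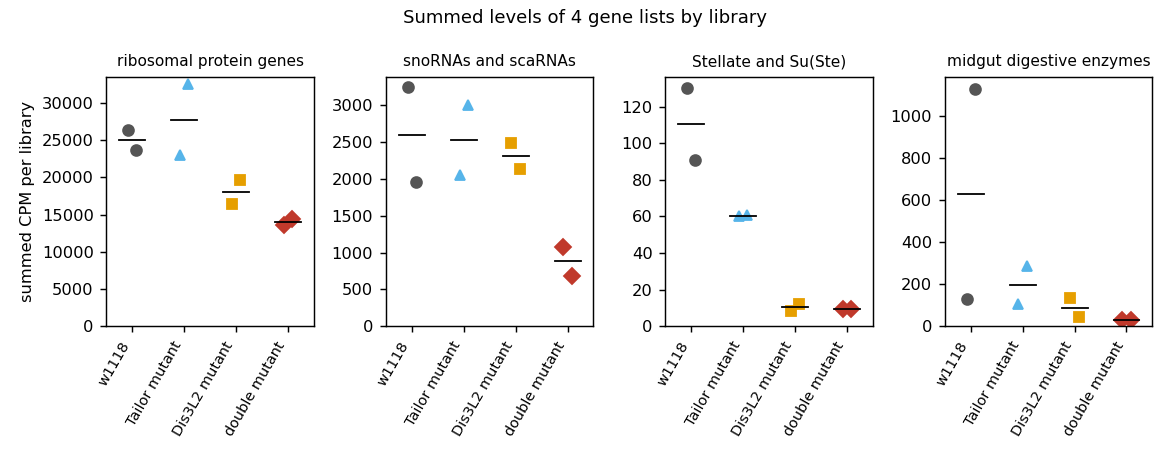
Summed CPM of 4 gene groups (panels) in each of the 8 libraries (points), with bars at the mean of the 2 libraries of a group. The double mutant is lowest for ribosomal proteins, at 13542 and 14364 CPM, and for snoRNAs, at 1079 and 680 CPM.

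Lists of late male germline genes had medians above 0. Cup and comet genes, which are transcribed after meiosis, all lay above 0 (16 of 16 tested, 4 called, median 0.44), and sperm and spermatid protein genes had 5 of 45 called higher (11.1%, against 6.66% of all features), none lower, and a median of 0.26 with 37 above 0. soti, an inhibitor of a Cullin-3 ubiquitin ligase in individualizing spermatids, was at 311 and 316 CPM in w1118. Testes mutant for Tailor held 293 and 227 CPM, those mutant for Dis3L2 438 and 524 CPM and those mutant for both 539 and 548 CPM (0.80 ± 0.16, adjusted p = 0.0235). The double mutant libraries were the highest. S-Lap5, a leucyl aminopeptidase of sperm, went from 191 and 194 CPM to 368 and 421 CPM (1.04 ± 0.13, adjusted p = 0.00518), Tektin-A, a microtubule protein of the axoneme, from 247 and 269 CPM to 388 and 439.8 CPM (0.68 ± 0.12, adjusted p = 0.0159) and Mst77F, a protein of sperm chromatin, from 1267 and 1347 CPM to 2121 and 2082 CPM (0.69 ± 0.16, adjusted p = 0.0363). Without a w1118 or double mutant library none of the cup and comet genes and 0 to 2 of the sperm genes were called, while the medians stayed between 0.41 and 0.48 and between 0.24 and 0.31.

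Early germline genes were divided: 7 of 23 were higher (30.4%, against 6.66% of all features) and none lower, but the median was -0.18 and 14 members lay below 0. stai, the fly stathmin, a regulator of microtubules, was at 133 and 143 CPM in w1118. In the Tailor mutant the level was 144 and 130.1 CPM, in the Dis3L2 mutant 285 and 297 CPM, and the double mutant was at 339 and 307 CPM (1.23 ± 0.12, adjusted p = 0.0023), so both groups mutant for Dis3L2 were high. esg, a transcription factor of stem cells, was at 5.19 and 5.86 CPM in w1118 and 14.0 and 21.9 CPM in the double mutant (1.69 ± 0.25, adjusted p = 0.0085), with the single mutants between, at 8.26 to 10.9 CPM. mei-P26, a translational regulator of germline proliferation, was lowest in the Tailor mutant, at 105 and 134 CPM, at 186 and 186 CPM in w1118, and highest in the double mutant, at 322 and 324 CPM (0.79 ± 0.14, adjusted p = 0.015; interaction 1.00 ± 0.20, adjusted p = 0.0406). The differentiation factor bam (-0.18, adjusted p = 0.609) and the germline helicase vas (-0.19, adjusted p = 0.687) were not called. Without a w1118 or double mutant library 1 or 2 members of the list were called higher.

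Among 24 genes of meiotic arrest and entry 3 were higher (12.5%, against 6.66% of all features) and none lower (median -0.06). twe, the Cdc25 phosphatase of male meiosis, was at 110.3 and 119 CPM in w1118. Tailor mutants held 112 and 98.2 CPM and Dis3L2 mutants 162 and 177 CPM, while the double mutant libraries were at 211 and 224 CPM (0.92 ± 0.12, adjusted p = 0.0062). Its translational activator bol was at 800.4 and 833 CPM in w1118. Values were 568 and 575 CPM in the Tailor mutant and 1080.3 and 1001 CPM in Dis3L2 mutants, with 1286 and 1218 CPM when both genes were mutated (0.62 ± 0.13, adjusted p = 0.0266). Both stood highest in the double mutant. No gene of these 4 germline lists was called lower by edgeR or DESeq2, and 1 of the meiotic list had an unadjusted p under 0.05. The meiotic arrest genes aly (-0.14, adjusted p = 0.547), can (0.24, adjusted p = 0.313) and sa (0.10, adjusted p = 0.741) were not called.

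Testis proteasome subunits, copies of the ubiquitous subunits used in the male germline, moved apart, with 3 of 14 higher and 1 lower. These were 21.4% and 7.14%, against 6.66% and 4.91% of all features. Prosbeta5R2 was at 135 and 147 CPM in w1118. Its single mutant values were 125 and 109.9 CPM for Tailor and 68.5 and 86.7 CPM for Dis3L2, and that of the double mutant was 49.6 and 42.7 CPM (-1.61 ± 0.16, adjusted p = 0.00232), and its call was kept in the 17 settings that define the firmest results. Prosbeta4R2 went the other way, from 78.1 and 75.9 CPM to 161 and 155 CPM (1.04 ± 0.13, adjusted p = 0.00503), as did Prosalpha4T1 (1.14 ± 0.22, adjusted p = 0.0199) and Prosalpha4T2 (0.79 ± 0.14, adjusted p = 0.0168). None of these 3 differed past the threshold from the Dis3L2 mutant, where Prosbeta4R2 was at 145 and 173 CPM (adjusted p = 0.974, 0.918 and 0.43).

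Few RNA decay genes were called. Neither edgeR nor DESeq2 called any of 15 genes of the nuclear exosome and nuclear decay, although edgeR gave an unadjusted p under 0.05 to 1 higher and 3 lower. The lowest p was that of l(2)35Df (0.36 ± 0.13, adjusted p = 0.117). Of 25 genes of cytoplasmic mRNA decay, Pop2, a deadenylase of the CCR4-NOT complex, was the only one called, at 128 and 135 CPM in w1118. Testes mutant for Tailor held 124 and 124 CPM, those mutant for Dis3L2 148 and 151 CPM and those mutant for both 208 and 211 CPM (0.67 ± 0.10, adjusted p = 0.00909). Among 5 other terminal nucleotidyltransferases, the enzyme family of Tailor, 2 were higher (40.0%, against 6.66% of all features). Gld2, a cytoplasmic poly(A) polymerase, went from 648 and 662 CPM to 1017 and 977 CPM (0.61 ± 0.13, adjusted p = 0.0254), and Trf4-2 from 107 and 117 CPM to 155 and 165 CPM (0.51 ± 0.12, adjusted p = 0.0366). Without any 1 of the w1118 and double mutant libraries neither was called. In the small RNA pathways, loqs, the double-stranded RNA binding partner of Dicer-1, rose from 181 and 163 CPM to 308 and 333 CPM (0.90 ± 0.12, adjusted p = 0.00637), and del, a factor of piRNA cluster transcription, fell from 60.2 and 68.3 CPM to 45.0 and 41.1 CPM (-0.58 ± 0.13, adjusted p = 0.0308). Both were the only members of the list of 32 that were called, 3.12% in each direction against 6.66% and 4.91% of all features.

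Stellate genes are repeated genes of the X whose transcripts are held down in the testis by piRNAs from the Suppressor of Stellate repeats. Of 14 tested members of a list of both, 7 were lower, with a median of -3.14 (-3.28 to -1.09 over 19 settings, nearest 0 with no filter on low counts) and a median of -3.82 in the Dis3L2 mutant against w1118. Ste12DOR was at 111 and 74.9 CPM in w1118. In the Tailor mutant the level was 46.6 and 46.6 CPM, in the Dis3L2 mutant 2.33 and 4.49 CPM, and the double mutant was at 2.41 and 1.97 CPM (-5.37 ± 0.36, adjusted p = 0.000561). It did not differ past the threshold from the Dis3L2 mutant (-0.63 ± 0.35, adjusted p = 0.283). Because these copies are near-identical and the handling of reads with several positions is not given, the split among copies is uncertain, and without a w1118 or double mutant library only 1 member was called.

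Transposon insertions had 59 rises and 66 falls (7.79% and 8.72% of 757, against 6.66% and 4.91% of all features). The share of rises was near that of all features. Their median was -0.46, which lay between -0.66 and -0.05 over 19 settings and was nearest to the -0.06 of all features with no filter on low counts. Falls outnumbered rises in the fit reported, but in 7 of the 19 settings rises outnumbered falls. Insertions of the same family share sequence, so counts of single insertions are uncertain. The insertion opus{}2507 on 2R stood at 1.36 and 1.68 CPM in w1118. Tailor mutants held 33.9 and 25.996 CPM and Dis3L2 mutants 42.4 and 49.8 CPM, while the double mutant libraries were at 106 and 85.6 CPM (5.97 ± 0.24, adjusted p = 0.000156). The double mutant and w1118 libraries did not overlap, as for 69.9% of all features, and the double mutant exceeded both single mutants (adjusted p = 0.00597 and 0.0197). springer{}59 was high in both groups mutant for Tailor, at 7.81 and 10.1 CPM in the Tailor mutant and 5.94 and 8.62 CPM in the double mutant, and low in w1118, at 0.436 and 0.722 CPM, and in the Dis3L2 mutant, at 0.866 and 1.28 CPM (3.61 ± 0.38 against w1118, adjusted p = 0.00298). Without a w1118 or double mutant library 7 to 18 insertions were called higher and 3 to 9 lower.

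Metabolic and detoxification genes included several of the firmest single changes. Hn, the phenylalanine hydroxylase gene, whose product also takes part in eye pigment synthesis, was at 2.52 and 2.05 CPM in w1118. Values were 16.9 and 16.03 CPM in the Tailor mutant and 15.1 and 18.5 CPM in Dis3L2 mutants, with 37.3 and 35.9 CPM when both genes were mutated (4.004 ± 0.19, adjusted p = 0.000199). The single mutants lay between, and the double mutant exceeded each of them (adjusted p = 0.00991 and 0.0108). GstE8, a glutathione S-transferase, was at 3.59 and 4.65 CPM in w1118 and 2.53 and 3.51 CPM in the Dis3L2 mutant, but 16.3 and 15.5 CPM in the Tailor mutant and 30.1 and 29.3 CPM in the double mutant (2.85 ± 0.21, adjusted p = 0.000862). In all, 3 of 30 glutathione S-transferases were higher and 4 lower (the latter 13.3%), and 5 of 73 cytochrome P450 genes were higher and 5 lower (6.85% each). Over all features, 6.66% were higher and 4.91% lower, so the share of rises among cytochrome P450 genes was near that of all features. Cyp4p1 rose from 3.35 and 3.05 CPM to 22.3 and 20.1 CPM (2.73 ± 0.16, adjusted p = 0.000304), whereas Cyp310a1 was at 28.1 and 31.9 CPM in w1118, at 19.2 to 45.8 CPM in the single mutants and at 7.58 and 6.23 CPM in the double mutant (-2.11 ± 0.22, adjusted p = 0.00302; interaction -2.27 ± 0.30, adjusted p = 0.0139).

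Sensory and mitochondrial genes showed isolated changes. Of 86 chemosensory receptor and binding protein genes 3 were higher and 5 lower (3.49% and 5.81%, against 6.66% and 4.91% of all features). Gr32a, a gustatory receptor gene, was at 3.98 and 3.73 CPM in w1118, 4.22 to 6.11 CPM in the single mutants and 13.8 and 14.9 CPM in the double mutant (1.89 ± 0.22, adjusted p = 0.00454), above all 6 other libraries. Nuclear genes of oxidative phosphorylation had 2 of 86 higher (2.33%) and none lower (median -0.01). Mitochondrial ribosomal protein genes had 1 higher and 2 lower of 72 (1.39% and 2.78%, median -0.22). mRpL37 was low in every mutant, at 17.9 and 18.7 CPM in w1118 and 5.17 and 6.34 CPM in the double mutant, with the single mutants from 6.79 to 7.96 CPM (-1.68 ± 0.18, adjusted p = 0.00302).

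Markers of tissues that adjoin the testis were examined in the same libraries. Midgut digestive enzymes summed to 128 CPM in w1118 replicate 1 and 1129 CPM in replicate 2, against 31.3 and 31.4 CPM in the double mutant. Of 27 tested, 6 were called lower (22.2%, against 4.91% of all features). betaTry, a trypsin gene, was at 10.6 and 119.9 CPM in w1118 and 0.128 and 0.208 CPM in the double mutant (adjusted p = 0.0237), and Bace, at 5.43 and 59.8 CPM in w1118, had 1 read in the double mutant. For both genes the double mutant lay below each w1118 library, and w1118 replicate 2 was the higher. Leaving out a w1118 or double mutant library gave 0 to 7 members called lower. Fat body genes were mixed, with 5 of 18 higher and 2 lower (27.8% and 11.1%, against 6.66% and 4.91% of all features). Fbp1, a storage protein receptor, was at 0 and 0.120 CPM in w1118, 10.4 and 0.0804 CPM in the Tailor mutant and 10.8 and 17.97 CPM in the double mutant. Its call (edgeR adjusted p = 0.0489) was kept in 10 of the 17 settings that define the firmest results. The lipase gene bmm, for triglycerides, rose from 29.2 and 27.1 CPM to 61.7 and 57.5 CPM (1.08 ± 0.12, adjusted p = 0.00411). Tsf1, a transferrin, fell from 669 and 574 CPM to 202 and 192 CPM (-1.66 ± 0.23, adjusted p = 0.00682).

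Accessory gland, duct and bulb genes took 2.78% and 2.80% of counts in w1118 and 2.85% and 2.08% in the double mutant. Of 35 tested, 4 were lower (11.4%, against 4.91% of all features). Among them antr had the lowest p (107 and 110.3 CPM to 63.9 and 55.6 CPM, -0.86 ± 0.19, adjusted p = 0.0298). None of 23 muscle genes was called by edgeR or DESeq2, and 1, Act87E, had an unadjusted p under 0.05 (0.39 ± 0.13, adjusted p = 0.102). Antimicrobial peptide genes lay above 0 in 16 of 17, but edgeR called none, with 6 at an unadjusted p under 0.05 and 3 called by DESeq2. Cyst and hub cell genes had 1 of 19 higher (5.26%, against 6.66% of all features). This was Socs36E, an inhibitor of JAK-STAT signalling, at 7.71 and 8.58 CPM in w1118 and 20.3 and 18.7 CPM in the double mutant (1.26 ± 0.21, adjusted p = 0.0138). Pxn, the peroxidasin gene among the blood cell markers, rose from 15.7 and 13.3 CPM to 49.7 and 43.7 CPM (1.69 ± 0.16, adjusted p = 0.00185), as did the overlapping noncoding genes CR45981 and CR45982 (adjusted p = 0.00298 and 0.00518) but not CR45660 (-0.62, adjusted p = 0.257). Hml, another blood cell marker, was not called (-0.04, adjusted p = 0.968). Of 14 blood cell genes tested, 1 was higher and 1 lower, with a median of 0.01. These were 7.14% each, against 6.66% and 4.91% of all features. Nplp2 was the member called lower, at -1.75 to -1.14 over the 17 settings that define the firmest results. The part of other tissues in the germline results was not tested.

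The changes were spread over the chromosomes, with chromosome 4 apart. Of its 77 tested protein-coding genes 66 (85.7%) had a log2 change below 0, with a median of -0.42. Of these genes 6 were called lower (7.79%, against 4.91% of all features) and none higher (1 higher by DESeq2). In either direction 7.79% were called, against 11.6% of all features. On the other major arms the median lay between -0.05 and -0.04 and the share below 0 between 52.6% and 53.8%. Against w1118, the median of chromosome 4 was 0.14 in Tailor mutants and -0.06 in Dis3L2 mutants. Relative to the median of all features, the median of chromosome 4 in the double mutant was -0.52 to -0.20 over the 19 settings tried. Calls were densest on 3L, at 13.9% of features, and 16 of the 42 features lost in the double mutant (38.1%) lay there, where 19.3% of tested features lie. Within 1 Mb of Dis3l2, which lies on 3L, 13.4% of features were called, and within 1 Mb of Tailor 7.23%.

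**Figure D5:**
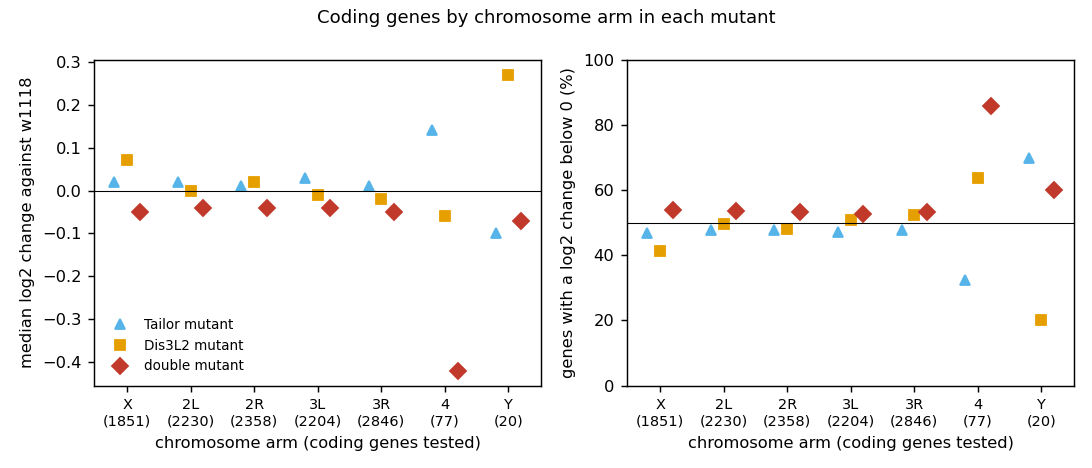
Median log2 change of protein-coding genes (left panel) and percentage of them below 0 (right panel) by chromosome arm, with 1 symbol for each of the 3 mutants against w1118. Chromosome 4 in the double mutant stands apart, at -0.42 and 85.7%.

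Among the most abundant RNAs the changes were small in size. CG14995 was at 1930.3 and 2070.3 CPM in w1118 and 3289.5 and 3338 CPM in the double mutant (0.73 ± 0.16, adjusted p = 0.033). ctrip, a ubiquitin ligase gene of the circadian clock, was at 899.6 and 834 CPM in w1118 and 1403 and 1689 CPM in the double mutant (0.83 ± 0.21, adjusted p = 0.0456), and Vps13B at 660.1 and 693 CPM and 1102 and 1162 CPM (0.74 ± 0.18, adjusted p = 0.0405). In the other direction, CG18628 was at 7408 and 5731 CPM in w1118 and 3508 and 3032 CPM in the double mutant (-1.01 ± 0.24, adjusted p = 0.0388) and CG10407 at 1551 and 1565 CPM and 887 and 790.0 CPM (-0.89 ± 0.17, adjusted p = 0.0203). For all 5 the libraries of the groups did not overlap, as for 69.9% of all features, and none was among the 39 firmest results.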

How the data were processed

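The authors deposited 1 table of raw read counts per feature and library. Per the submitters' processing notes, Trimmomatic 0.36 trimmed the reads and HISAT2 aligned them to dm6. The counter, its annotation, its strand setting and its treatment of multi-mapping reads were not given in the sources used here, so values of overlapping, antisense and repeated genes are uncertain. Per the labels' protocols, 650 ng of RNA entered a total RNA preparation with 8 PCR cycles, and paired reads of 50 nt came from 2 flow cells; which library ran on which is not given.

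Counts were fitted with edgeR 4.0.16 in R 4.3.3 (trimmed mean of M values scaling; filterByExpr, minimum count 10; quasi-likelihood model of the 8 libraries by group, with no other term), with Benjamini-Hochberg adjustment over 14246 features and calls at an adjusted p of 0.05 or less. SEs are the log2 change over the square root of F and can lie below counting error where a group has few counts. CPM used the scaled library sizes. Total counts ranged from 9781275 to 30059737. Folds against a group at 0 put 3 counts over that group. For 1 to 3 counts in the lower group, the ratio carries an exact 95% binomial interval, conditional on the total. Neither covers more than counting error. Data were simulated for this comparison from a shared mean level per feature and the fitted trend of spread. In them, 30.3% of 2-fold, 80.3% of 4-fold and 87.3% of 8-fold changes were called over 14067 features, with 4 false calls. Spreads particular to a feature or group were not simulated, so these rates need not hold for the real libraries.

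Names and coordinates (1-based, dm6) came from the Ensembl annotation of BDGP6: 13553 genes matched by symbol and 3778 by an older symbol, 140 did not, and 5400 insertions matched. The comparison, the 37 gene lists and the named genes were chosen with earlier results of these data known, so no list is independent evidence. Named genes are the targeted genes and w; the 15 largest rises and 15 largest falls among called features whose higher group had at least 5 CPM and whose libraries did not overlap; in each list up to 4 called members by lowest p, or the member with the lowest p; the 10 called features with the lowest p; and the 5 with the highest mean CPM in each direction. Not all are printed. Alternatives were relative log expression and upper-quartile scaling, DESeq2 1.42.0, 2 other filters, small RNAs left out, only the 4 libraries compared, a replicate block, and each library left out.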

Additional observations from a re-analysis of the deposited data

Results flagged for a closer look

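For 20 named features with more than 3 counts in every group, the double mutant's log2 change against w1118 departed from both single changes added (edgeR's quasi-likelihood interaction test, adjusted p of 0.05 or less, passed by 4.08% of all features). The changes added share the w1118 libraries. In 7 the double mutant lay above the sum. CG43320 departed by 3.57 and CG2118 by 1.69, with both genes highest in the double mutant and CG43320 also raised in the Dis3L2 mutant (2.37, adjusted p = 0.0076). Departures of LysE, by 2.27, and CG16940, by 1.91, were smaller falls than the sum, in genes already low in a single mutant. The others above the sum were del at 1.31, GstE1 at 1.26 and mei-P26 at 1.00.

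In 13 the double mutant lay below the sum. In 9 of them the single mutants lay above w1118 too, past the threshold in both for all but w (Tailor mutant 0.54, adjusted p = 0.233): RabX2 at -5.96, CG43441 at -4.59, Doc2-element{}650 at -4.06, opus{}2507 at -3.23, Cyp4p1 at -1.89, w at -1.81, Hn at -1.73, CR44750 at -1.64 and CR46260 at -1.46. The other 4 were low in the double mutant only or lowest there: scaRNA:MeU2-48 at -4.65, snoRNA:Psi18S-1854b at -3.86, CG2736 at -3.45 and Cyp310a1 at -2.27. CG43441 overlaps CG9492 on the same strand, which also rose (1.84, adjusted p = 0.00518). Some of the 9 had few reads in w1118: RabX2 had 1 and 3, CR46260 had 7 and 9, and CG43441 had 14 and 10. Both single changes of such a gene start from that low level. Its part in these departures was not tested.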

How the results depend on the processing

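No called named feature changed sign in any setting tried, and neither did any list median that was recomputed over the settings. Most list medians, such as those of long noncoding CR genes and early germline genes, were not recomputed. The larger of rises and falls turned in 7 of 19 settings for transposon insertions (43 higher and 29 lower with a replicate block on all 8 libraries, for example). It turned in 2 for testis proteasome subunits and in 1 for fat body genes, for long noncoding CR genes and for all features. With DESeq2 the interaction was called for 1096 features. Fits of only the 4 libraries compared called 3786 features in the double mutant against w1118 (2156 higher, 1630 lower), 20 against the Tailor mutant and 2152 against the Dis3L2 mutant. A replicate block on all 8 libraries called 991 (567 higher, 424 lower), 1127 and 696 in the same order and 220 for the interaction; in the 4 libraries compared the block gave 3192 (1700 and 1492) and 1 against the Tailor mutant. The labels do not say that replicate numbers pair the samples. Same-numbered deviations correlated at -0.304 to 0.28, and at -0.148 between w1118 and the double mutant. With so few libraries a group, these values cannot decide whether same-numbered libraries shared a batch. Between w1118 and the double mutant, crossed numbers, chosen after seeing the data, gave 4289 (2310 and 1979).

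Leaving out each library in turn gave 196 to 3537 features in the double mutant against w1118 (109 to 1958 higher, 87 to 1579 lower), 126 to 3769 against the Tailor mutant, 195 to 2844 against the Dis3L2 mutant and 70 to 1882 for the interaction, with Tailor at -2.01 to -1.88 and CG16940 at -1.92 to -1.89; a lone library is then assumed to vary like the other groups. With w1118 replicate 2 and double mutant replicate 2 both left out, also chosen after seeing the data, 3 were called (1 higher, 2 lower), with 4, 49 and 9 in the other comparisons, and Tailor (-1.85) and CG16940 (-1.90) were no longer called. The causes were not tested. With 2 libraries a group and 9781275 counts in the shallowest, 2-fold changes were often missed in the simulated data, which held no spread particular to a feature or group.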

Other observations

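Transposon families differed in direction, counted over insertions that share sequence within a family. Over all features tested, 6.66% were called higher and 4.91% lower. Of 14 tested insertions of the X element 8 were higher, with a median of 2.47, and their family sum was 5.48 and 6.62 CPM in w1118 and 22.4 and 33.04 CPM in the double mutant. Burdock had 7 higher and 1 lower of 15 (median 1.36), while in the Dis3L2 mutant its median was -2.78. In FB 4 of 7 and in gypsy5 all 3 were higher (medians 3.29 and 3.79), but the FB sum was 14.7 and 16.4 CPM in w1118 and 21.2 and 18.1 CPM in the double mutant, and that of gypsy5 at most 0.339 CPM in w1118 and 3.44 and 3.01 CPM in the double mutant. The family jockey had 15 lower and 2 higher of 40 (median -1.28), and its sum fell from 490.0 and 511 CPM to 209.9 and 160.6 CPM. Quasimodo had 7 of 16 lower and none higher (median -1.15). Without a w1118 or double mutant library, 7 to 18 insertions were called higher and 3 to 9 lower over all families, against 59 and 66.

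Beyond 28 Mb on 3R, 18.1% of 443 features were called, against 11.3% over that arm. This limit was not part of the planned classes by arm and by distance from the targeted genes. No other arm end is given, so whether this region stands apart was not tested.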
